A study of Homo sapiens with 24 samples.

Results

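The comparison set PC3, a prostate cancer line from a bone metastasis that grows without androgen, against LNCaP and VCaP, lines from prostate cancer metastases that depend on androgen, all without drug. The rule for members uses labels alone and gives the 6 arrays of DMSO vehicle for these 3 lines, of 24 arrays in all: 2 PC3 arrays, 2 labelled LNCaP and 2 labelled VCaP. Every array came from an independent biological replicate collected after 24 hours, so that a p-value measures the spread between cultures of a line, and each line stands for a single donor's tumor. The other 18 arrays hold the same 3 lines given 0.5 µM or 10 µM I-BET762 (GSK525762A in the labels), an inhibitor that displaces BET bromodomain proteins from acetylated histones, and NCI-H660, a neuroendocrine prostate cancer line, under all 3 conditions. They share the fit, and so the estimate of spread, and their levels are given only beside a result in PC3. Per the study's methods the lines were grown in RPMI-1640 with fetal bovine serum.

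Luminal cells of the prostate are the secretory lining of its glands. They are kept in that state by the androgen receptor together with factors such as FOXA1 and HOXB13, which open chromatin for it, and they make kallikrein proteases, acid phosphatase and membrane proteases under androgen. Prostate cancers that lose this program can take up features of basal or mesenchymal cells, in which intermediate filaments of vimentin, N-cadherin, integrins, caveolae and secreted proteases serve spreading and invasion, while NF-kB, AP-1 and YAP/TEAD factors drive cytokines, immediate early genes and matrix proteins.

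Signals are MAS5 intensities scaled to 500 on each array, and a mean of 100 was used as a detection floor. Of 19775 genes named on the array, each read by a single probe set, 13091 reached the floor in at least 1 of the 3 lines. The trimmed mean was 499.9 on each of the 24 arrays, and the correlation of replicates over detected probe sets ranged from 0.974 to 0.986. The labels of the androgen-driven lines went against 2 line markers. ERG, the ETS factor placed under an androgen-driven promoter by a gene fusion in VCaP, read 6884 and 7084 on the arrays labelled LNCaP and 16.2 and 20.1 on those labelled VCaP. ETV1, the ETS factor rearranged in LNCaP, read 32.5 and 53.4 on the former and 408 and 343 on the latter. These arrays are therefore called by their labels throughout, and the main comparison uses the mean of both groups and a direction shared by both, which are the same whichever label belongs to which line. PC3 was low in both ETS genes, with ERG at 9.31 and 6.09 and ETV1 at 155 and 51.5. In these bulk samples, fewer cells making a transcript and less transcript per cell cannot be told apart.

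PC3 differed widely from both androgen-driven lines. By limma, with an adjusted p under 0.1, a difference over 2-fold and the same direction against each line, 2081 genes were higher in PC3 (10.5% of all genes) and 1789 were lower (9.05%). A stricter reading, in which a gene had to be called against each line on its own, gave 1377 higher (6.96%) and 963 lower (4.87%). Both PC3 arrays lay above all 4 others for 2025 of the 2081 higher genes, where 24.3% of all genes did so, and below them for 1615 of the 1789 lower genes, where 19.2% did. By over 10-fold against each line, 187 genes were higher in PC3 and 56 were lower, counting group means under the floor as 100. These counts do not weigh gains against losses. A lower gene had to be high in both other lines, and a higher gene in PC3 alone. The count of genes higher against lower depended on the scaling. With arrays centred on their medians, all differences shifted by -0.197 on the log2 scale and the split became 1704 higher and 2311 lower, and quantile normalization, with a shift of -0.184, gave 1924 and 1977.

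**Figure D1:**
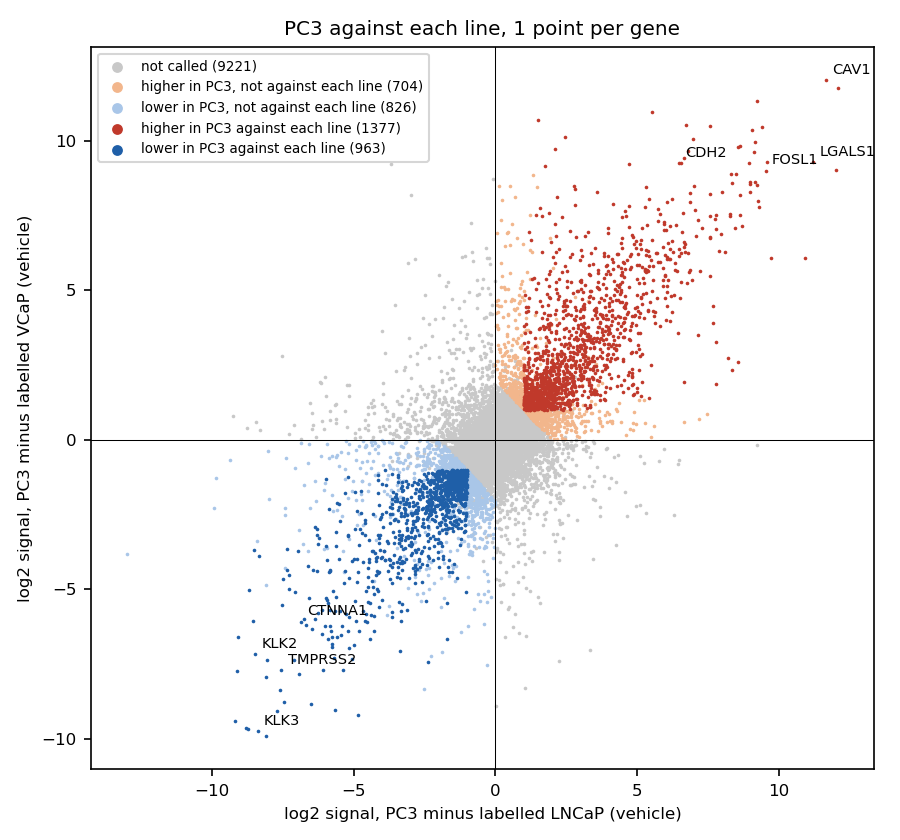
Difference in log2 MAS5 signal between PC3 and the arrays labelled LNCaP (horizontal axis) and labelled VCaP (vertical axis) in vehicle, with 1 point for each of the 13091 genes at the detection floor and colour for the call. The 1377 genes higher in PC3 against each line fill the upper right and the 963 lower against each line the lower left, with CAV1 and KLK3 near the far ends.

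The genes highest in PC3 were almost silent in the other lines. S100A6, a calcium-binding protein, read 26733 and 27591 in PC3, 81 and 25 on the arrays labelled LNCaP and 10.2 and 10.9 on those labelled VCaP. DKK1, a secreted Wnt antagonist, read 25413 and 24489 in PC3 and between 38.4 and 73.6 on the 4 other arrays. CAV1, the coat protein of caveolae, read 17128 and 18410 against at most 6.93. The groups were far apart for all 3 genes, with the other lines under the floor. S100A6 was at least 272-fold higher in PC3 than in either line (log2 difference from their mean 10.28 ± 0.46 SE, limma adjusted p = 1.23e-09), and CAV1 at least 178-fold (11.85 ± 0.74, adjusted p = 2.89e-08). The rest of the 15 leading genes were S100A2, PI3 (the elastase inhibitor elafin), FST (the activin antagonist follistatin), LGALS1 (galectin-1), TIMP1 (an inhibitor of matrix metalloproteinases), SRGN (the granule proteoglycan serglycin), LCN2 (a lipocalin that binds iron-carrying siderophores), IER3, PLAU, CXCL8, FOSL1 and CALB1. Their PC3 signals ranged from 8297, for CALB1, to 21178, for S100A2, and none of the 4 other arrays was above 143, for CXCL8.

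The genes lowest in PC3 were headed by the androgen-driven proteases. KLK2, a kallikrein made by luminal cells, read 48.6 and 106 in PC3, 25560 and 25820 on the arrays labelled LNCaP and 10093 and 10603 on those labelled VCaP. TMPRSS2, a membrane serine protease, read 42.1 and 53.3 against values from 8838 to 9941. KLK3, which encodes prostate-specific antigen, read 47.2 and 11.9 against 7743 to 20567. In each of the 3 genes PC3 lay at or under the floor on average and no array labelled LNCaP or VCaP came near it. KLK3 was at least 79.3-fold and at least 204-fold lower than in the lines labelled LNCaP and VCaP (log2 difference -9.07 ± 0.68 SE, limma adjusted p = 1.72e-07). Next came SELENOP, a selenium-carrying plasma protein, at 17.8 and 5.66 against 5585 to 7092, and ARG2, the mitochondrial arginase, with a mean of 99.1, against 4205 to 9353. The long noncoding RNA CRNDE, PRXL2A, ZBTB16 (a zinc finger factor induced by androgen), NDN, GASK1B, SYNE4, TMT1A, PAFAH1B3, ARHGEF26 and TMEFF2 completed the 15. Not every probe set of a gene agreed in call: 1 of 3 was called for TMEFF2, 2 of 4 for TMT1A, 2 of 3 for KLK3 and 3 of 4 for KLK2, and none was called the other way.

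**Figure D2:**
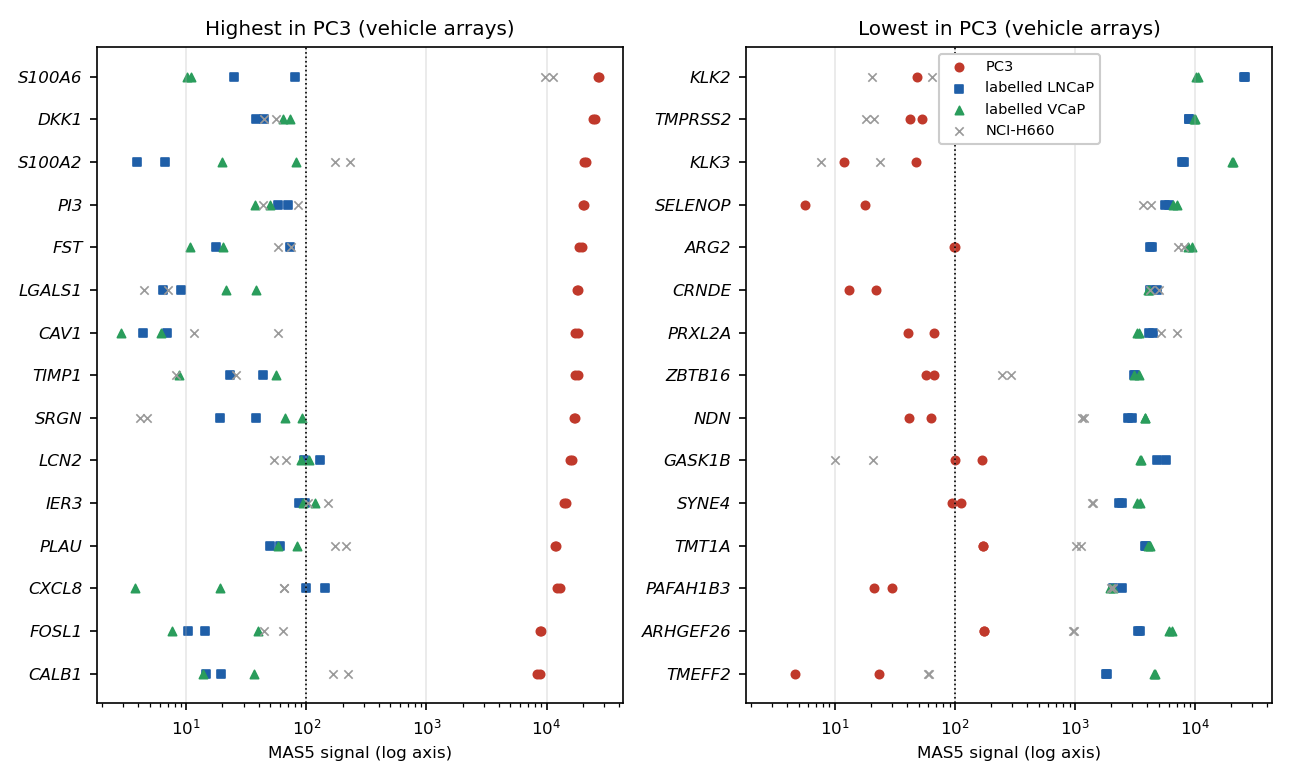
MAS5 signal, on a log axis, of the 15 genes highest (left) and the 15 lowest (right) in PC3 among those called against each line, with 1 point per vehicle array and the floor of 100 dotted. The 2 PC3 points lie apart from the arrays labelled LNCaP and VCaP in every row, which the ranking required. NCI-H660 lies nearer PC3 in some rows, as for S100A6 and KLK3, and far from it in others, as for CAV1 and SELENOP.

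Genes that androgen drives in luminal cells were lower as a group. Of 39 measured, 25 were lower in PC3 (17 against each line), none was higher, and the median log2 difference was -2.32, where the median of all genes was 0.09. Besides the kallikreins and TMPRSS2 these included TRPM8, a cold-gated channel (24 and 22.5 in PC3 against 337 to 7796), and ACP3, prostatic acid phosphatase (68.5 and 41.4 against 679 to 20037). FKBP5, a chaperone induced by androgen and by glucocorticoids, was lower but present, at 1884 and 1795 in PC3 against 6985 to 7287 in the others (log2 difference -1.96 ± 0.10 SE, limma adjusted p = 5.55e-09). SLC45A3, a prostate membrane transporter, likewise stayed over the floor, at 519 and 618 against 1914 to 6153. The 2 proximal promoters shown are those of the prostate kallikreins, each the 250 bases before the start site in the RefSeq annotation of GRCh38.p14, read 5′ to 3′ on the plus strand, where the gene lies. KLK3 is at chr19:50854665-50854914 and KLK2 at chr19:50873189-50873438. Capitals mark matches to an ARE-like pattern, GAACA and GTNCT spaced by 4 bases and preceded by any base, resembling the androgen response element, searched on both strands. It occurs in 0.231% of all 27305 promoters of this length.
KLK3: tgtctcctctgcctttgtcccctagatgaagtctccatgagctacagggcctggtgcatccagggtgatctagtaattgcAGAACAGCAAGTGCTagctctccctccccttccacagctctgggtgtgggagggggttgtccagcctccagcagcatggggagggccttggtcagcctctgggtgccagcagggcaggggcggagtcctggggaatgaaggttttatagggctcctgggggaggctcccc
KLK2: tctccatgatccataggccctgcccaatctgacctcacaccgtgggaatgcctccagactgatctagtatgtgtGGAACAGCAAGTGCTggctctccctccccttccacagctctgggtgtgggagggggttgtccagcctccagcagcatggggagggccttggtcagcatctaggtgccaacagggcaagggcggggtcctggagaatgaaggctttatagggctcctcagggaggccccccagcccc
The match starts 170 bases before the start site in KLK3 and 176 in KLK2. A match is a description of letters and was not tested as a binding site.

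The factors that hold the luminal state were lower in PC3 but remained detectable. HOXB13, the prostate homeobox factor, read 788 and 815 in PC3, 7123 and 6893 on the arrays labelled LNCaP and 6119 and 6347 on those labelled VCaP. FOXA1, the forkhead factor that opens chromatin for the androgen receptor, read 929 and 873 against 2653 to 4004. Both were well over the floor in PC3, and both were clear of the other arrays (log2 differences -3.04 ± 0.62 and -1.88 ± 0.13 SE, limma adjusted p = 0.00134 and 5.68e-08). GATA2, SPDEF, EHF and CREB3L4, further transcription factors of luminal cells, were also lower, making 6 of 13 measured. In the other direction, 3 of the 13 were higher. NR3C1, the glucocorticoid receptor, read 1494 and 1612 in PC3, 638 and 627 on the arrays labelled LNCaP and 23 and 60.7 on those labelled VCaP, and the epithelial factors ELF3 and ESRP1 were higher by less (log2 differences 1.45 and 1.06).

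Surface antigens of the prostate divided. FOLH1, the prostate-specific membrane antigen, read 22.8 and 14.7 in PC3, under the floor, 961 and 917 on the arrays labelled LNCaP and 3062 and 2702 on those labelled VCaP. STEAP1 and STEAP2, metalloreductases of the cell surface, were lower but present, STEAP1 at 3149 and 3169 against 14655 to 19954. Of 18 antigens measured, 5 were lower and 4 higher. The higher ones were the adhesion proteins CEACAM5, CEACAM6, ALCAM and CD24. CEACAM6 read 1169 and 991 in PC3 and at most 87.4 elsewhere.

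PC3 kept much of an epithelial profile. CDH1, the E-cadherin of epithelial junctions, read 8465 and 8652 in PC3 and from 8552 to 10337 in the other lines, with overlap (log2 difference -0.14 ± 0.09 SE, limma adjusted p = 0.283). KRT8, a luminal keratin, was higher in PC3, at 8449 and 8014 against 2477 to 3190, and its partner KRT18 read 21460 and 19398 against 13086 to 13395, a difference of 0.63 that did not reach 2-fold. EPCAM did not pass either. Of 32 luminal keratins and junction genes, 7 were higher and 6 lower, with a median difference of 0.23. CTNNA1, the alpha-catenin that ties cadherins to actin, stood apart from its partners. It read 37.4 and 17.5 in PC3, 3042 and 2904 on the arrays labelled LNCaP and 1754 and 1716 on those labelled VCaP. PC3 alone of the 3 lines was under the floor, at least 29.7-fold and 17.3-fold lower (log2 difference -6.47 ± 0.71 SE, adjusted p = 6.41e-06, 4 of 5 probe sets lower), whereas CTNNB1, the beta-catenin that binds it, differed by -0.30.

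Some markers of basal epithelium were higher in PC3. Of 16 measured, 8 were higher against each line and 1 was lower, with a median difference of 3.10. S100A2, ITGB4, LAMB3, SFN and KRT80 led. LAMB3, a chain of the laminin that anchors basal cells, read 5122 and 5569 in PC3 and at most 56.8 elsewhere. KRT19, found in basal and luminal cells, read 14701 and 16139 in PC3, 3232 and 3686 on the arrays labelled LNCaP and 37.5 and 81.5 on those labelled VCaP. The defining basal keratins KRT5 and KRT14 were near or under the floor in PC3: KRT5 read 81.3 and 97.1 in PC3, under the floor in all 3 lines, and KRT14 read 8.01 and 7.39 and was lower.

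Many mesenchymal genes were higher in PC3. Of 52 measured, 29 were higher (26 against each line), none was called lower (1 was with arrays centred on the median or quantile normalized), and the median difference was 2.25. VIM, the vimentin of mesenchymal filaments, read 1803 and 1838 in PC3, 75.6 and 178 on the arrays labelled LNCaP and 241 and 191 on those labelled VCaP (log2 difference 3.53 ± 0.25 SE, limma adjusted p = 1.05e-07), with 1 of 2 probe sets called. CDH2, N-cadherin, read 1166 and 1192 in PC3 and at most 24.6 elsewhere. FN1, fibronectin, read 4307 and 4840 against 123 to 633. The groups did not overlap in any of the 3. The transcription factor SNAI2 was higher as well, at 848 and 803 against 20.9 to 222. ZEB1, another repressor of epithelial genes, was under the floor on all 6 arrays, between 12 and 39.9, and gave no call. Caveolar genes went unevenly, with CAV1 and CAV2 higher while CAVIN1, needed for caveolae to form, had a mean of 192 on the arrays labelled VCaP and 130.0 in PC3, with 42.6 and 97.4 on those labelled LNCaP (log2 difference 0.23, adjusted p = 0.651). Markers of fibroblasts, 10 genes, showed none higher and none lower, and of them COL1A1 and COL1A2 alone were over the floor in PC3. The summed signal of these 10 was 927 on the arrays labelled VCaP, 880.0 in PC3 and 315 with the LNCaP label.

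The S100 family, small calcium-binding proteins that often act in inflammation and invasion, was higher as a block. Of 19 members measured, 13 were higher in PC3 (68.4%, against 10.5% of all genes). They were the 13 that reached the floor, several of them through PC3 alone, and 12 were higher against each line. The exception was S100A10, at 22771 and 18684 in PC3 and 18108 and 17227 on the arrays labelled LNCaP but 83.1 and 75.3 on those labelled VCaP. S100A9, a subunit of calprotectin, read 6609 and 6536 in PC3 and at most 13.7 elsewhere, and its partner S100A8 read 318 and 251 against at most 33.6. The promoter of S100A2, which read 21178 and 20622 in PC3 and at most 81.6 elsewhere, is shown as the 250 bases before its start site, at chr1:153565845-153566094 of GRCh38.p14, read 5′ to 3′ on the minus strand, with capitals for a match to TGANTCA, the AP-1 site.
S100A2: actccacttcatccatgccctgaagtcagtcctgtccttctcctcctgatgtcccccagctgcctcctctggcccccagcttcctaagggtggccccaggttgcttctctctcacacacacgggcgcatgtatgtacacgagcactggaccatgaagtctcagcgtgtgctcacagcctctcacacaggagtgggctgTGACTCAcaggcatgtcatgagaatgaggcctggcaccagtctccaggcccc
The match starts 52 bases before the start site. The promoters of S100A6, PLAU and CAV1, also high in PC3, held no match to this pattern. The pattern, searched on both strands, is in 6.60% of all promoters, in 3.76% of those of genes at the floor, in 5.87% of the 1040 genes higher against each line that have a promoter in the table, and in 2.30% of the 784 lower ones, shares that were not tested.

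Integrins and the plasminogen system followed. Of 24 integrins and matrix receptors 8 were higher and none lower (1 with median centring). CD44, the hyaluronan receptor, read 6558 and 5941 in PC3, 278 and 280 on the arrays labelled LNCaP and 30.8 and 40.6 on those labelled VCaP, and 11 of its 13 probe sets were called. ITGA2, a collagen receptor subunit, read 7327 and 8009 against at most 173. PLAU, urokinase, which cuts plasminogen to plasmin, read 11739 and 11924 in PC3 and between 50.1 and 84.1 elsewhere, at least 118-fold higher in PC3. Its receptor PLAUR read 3259 and 3234 against 127 to 285. Both arms of the system were thus higher with no overlap, together with the tissue activator PLAT and the inhibitors TIMP1, TIMP2 and SERPINE2, in a list where 17 of 31 were higher and 4 lower. Membrane proteases of luminal cells were among those lower, HPN (hepsin) at 117 and 107 against 1539 to 2364.

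The kallikrein genes, which form a single cluster, went both ways. Of 14 members measured, KLK2, KLK3, KLK4 and KLK15 were lower and KLK5, KLK6 and KLK8, which are proteases of stratified epithelia, were higher. KLK6 read 5506 and 5852 in PC3 and at most 92 elsewhere, and KLK5 read 6217 and 5735 against at most 124. Neither overlapped with another line. The remaining 7 were not called.

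NF-kB and cytokine genes were mostly higher. Of 57 measured, 33 were higher in PC3 (29 against each line), 4 were lower, and the median difference was 2.03. CXCL8, the neutrophil chemokine interleukin-8, read 12293 and 12983 in PC3, 99.7 and 143 on the arrays labelled LNCaP and 3.73 and 19.2 on those labelled VCaP (log2 difference 8.64 ± 0.67 SE, limma adjusted p = 2.3e-07). CXCL5, of the same chemokine class, read 4262 and 5189 against at most 57.1. IL6, a cytokine that signals through STAT3, read 2028 and 2442 against at most 52.7. PC3 alone made these transcripts at a high level. PTGS2 (cyclooxygenase-2), IL18, IL1B, LIF, C3, TNFAIP3 and S100A9 were higher in the same way, TNFAIP3, a brake on NF-kB, at 2528 and 2255 against 115 to 160. The NF-kB subunit RELB was called higher, at 376 and 315 against 64 to 243, and NFKB1 and RELA were not: NFKB1 read 1180 and 1294 against 790 to 1057, a difference of 0.47, and RELA read 3420 and 3743 between the other 2 lines. Of the 4 lower genes, IL1R1, the interleukin-1 receptor, read 114 and 119 in PC3 against 800 to 1108, and CCL2 was lower through the arrays labelled LNCaP alone, at 522 and 591, since both other lines were under the floor.

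Within the CXCL family, 5 of 14 measured were higher, CXCL1, CXCL3, CXCL5, CXCL6 and CXCL8, all neutrophil chemokines of chromosome 4, and CXCL10 was lower. Their neighbour CXCL2 was not among them, with means of 30.7 in PC3, 23.3 and 41.5. The promoters of 4 are printed because CXCL2 shares its letters with the others and not the level, as read on the single probe set used. Each is the 250 bases before the start site in GRCh38.p14, 5′ to 3′ on the gene's strand, CXCL8 at chr4:73740319-73740568 and CXCL1 at chr4:73869143-73869392 on the plus strand, and CXCL5 at chr4:73998678-73998927 and CXCL2 at chr4:74099196-74099445 on the minus strand. Capitals mark NF-kB matches to GGNNNTTCC and AP-1 matches to TGANTCA on either strand.
CXCL8: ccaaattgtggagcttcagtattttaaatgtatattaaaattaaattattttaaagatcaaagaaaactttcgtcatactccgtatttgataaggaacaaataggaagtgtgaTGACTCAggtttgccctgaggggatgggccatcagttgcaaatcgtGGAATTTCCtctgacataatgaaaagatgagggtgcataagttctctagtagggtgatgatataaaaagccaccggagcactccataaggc
CXCL1: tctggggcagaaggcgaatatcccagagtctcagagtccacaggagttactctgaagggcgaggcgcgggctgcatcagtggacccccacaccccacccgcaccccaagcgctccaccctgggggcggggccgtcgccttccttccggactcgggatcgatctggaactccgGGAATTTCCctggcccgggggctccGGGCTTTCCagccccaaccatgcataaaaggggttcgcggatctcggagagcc
CXCL5: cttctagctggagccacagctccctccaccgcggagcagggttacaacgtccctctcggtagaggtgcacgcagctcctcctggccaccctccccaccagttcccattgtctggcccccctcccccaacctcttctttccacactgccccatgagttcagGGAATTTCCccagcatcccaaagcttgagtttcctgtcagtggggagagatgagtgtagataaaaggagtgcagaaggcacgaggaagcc
CXCL2: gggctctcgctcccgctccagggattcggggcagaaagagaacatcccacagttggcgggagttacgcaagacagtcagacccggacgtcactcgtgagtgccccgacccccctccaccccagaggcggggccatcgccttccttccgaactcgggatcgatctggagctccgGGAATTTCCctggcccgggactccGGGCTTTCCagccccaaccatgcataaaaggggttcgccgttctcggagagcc
All 6 chemokine promoters, those of CXCL3 and CXCL6 included, hold the letters GGAATTTCC, starting between 77 and 91 bases before the start site, where 0.428% of all promoters of this length hold them on either strand. The looser pattern GGNNNTTCC is common, in 17.1% of all promoters, 19.7% of those of genes at the floor, 18.8% of those higher in PC3 against each line and 16.6% of those lower. For GGAATTTCC these shares were 0.414%, 1.25% (13 of 1040) and 0.255%. These letters were chosen from the chemokine promoters themselves. The 5 higher CXCL genes are among the 13, so the 1.25% is not separate from that choice. The shares were not tested.

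Interferon-stimulated and antigen-presenting genes were higher too. Of 57 measured, 35 were higher (26 against each line) and 1, IFNAR1, was lower, with a median difference of 1.62. IFI27 read 1053 and 1526 in PC3 and at most 15.9 elsewhere, and MX1, an antiviral GTPase, read 740 and 1067 against at most 39.6. IFIT1 was intermediate on the arrays labelled VCaP, at 236 and 200, beside 1367 and 1521 in PC3 and 4.95 and 4.76 on those labelled LNCaP. Among MHC class I genes, HLA-B was higher, at 7392 and 8621 against 1667 to 3970, whereas HLA-C did not reach 2-fold on average and B2M differed by 0.20.

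Many AP-1 and immediate early genes were higher. Of 28 measured 18 were higher and none lower (1 with median centring), with a median of 2.47. FOSL1, the Fos-family subunit of AP-1, read 8851 and 9024 in PC3 and at most 39.4 elsewhere. JUNB and FOSL2 were higher by less, JUNB at 1750 and 1745 against 216 to 382. JUN itself read 426 and 348 against 180 to 217, a log2 difference of 0.98 that just missed 2-fold. The ERK-induced factors ETV4 and ETV5 were higher against both lines, ETV4 at 1510 and 1648 against at most 26.2, as were the feedback phosphatases DUSP4, DUSP5 and DUSP6.

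YAP and TEAD targets had the largest share of higher genes of the 25 lists, 22 of 31 with none lower and a median of 2.52. CCN1, a matrix protein, read 14183 and 14721 in PC3, 1676 and 1274 on the arrays labelled LNCaP and 538 and 660 on those labelled VCaP. CCN2, its close relative, was higher as well, at 400 and 355 in PC3 against at most 87.6. Genes of the pathway itself were in the list as well, and WWTR1, which encodes the co-activator TAZ, read 3043 and 3142 against 95.5 to 482. TGFB2, a TGF-beta ligand, read 9861 and 8783 against at most 148.

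**Figure D3:**
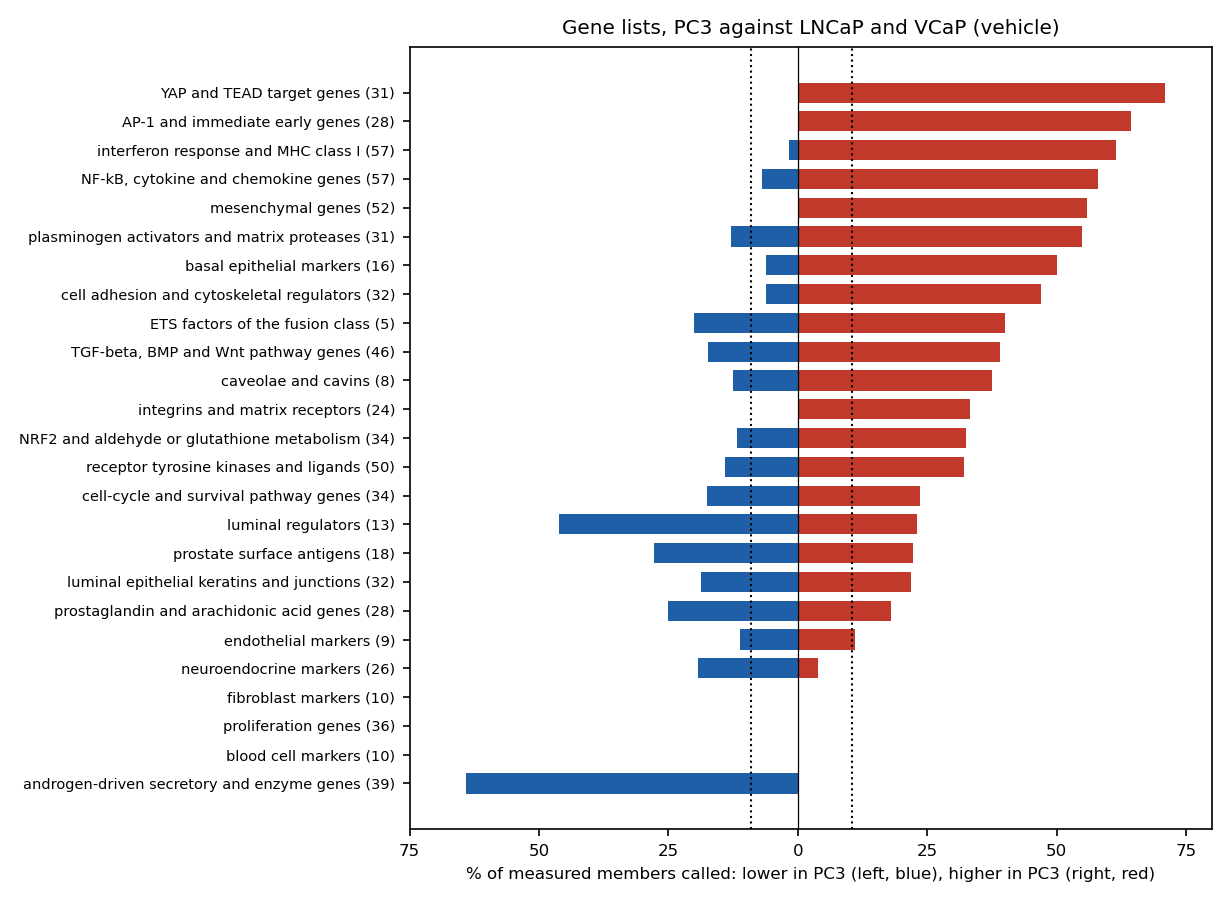
Share of measured members called higher (right, red) and lower (left, blue) in PC3 than in both androgen-driven lines for 25 gene lists, with the number measured in brackets and dotted lines at the shares of all genes, 10.5% and 9.05%. Among genes at the floor, which alone could be called, the shares were 15.9% and 13.7% and are not drawn. YAP and TEAD targets, AP-1, interferon, NF-kB and mesenchymal genes extend far to the right, androgen-driven genes far to the left, and proliferation genes not at all.

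Growth factor receptors and ligands were called in both directions, 16 of 50 higher and 7 lower. MET, the receptor for hepatocyte growth factor, read 6754 and 6733 in PC3 and at most 64.3 elsewhere. AXL, the receptor for GAS6, read 7026 and 6354 against at most 41.4, and EPHA2 read 4520 and 4567 against at most 66.7. EGFR was higher by less, 2246 and 2310 against 251 to 383, with 5 of 9 probe sets called. All 4 were clear of both lines. IGF1R, FGFR1, FGFR2, FGFR3 and MERTK were lower, IGF1R at 410 and 436 against 1112 to 3521. Ligands joined the receptors, with TGFA and VEGFC higher.

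In the TGF-beta, BMP and Wnt list 18 of 46 were higher and 8 lower. Ligands and antagonists were prominent among the higher genes, with INHBA (the activin A subunit) at 6426 and 5681 against at most 66.9, beside its antagonist FST, and TGFB1, TGFB2 and DKK1. Receptor TGFBR2 read 3098 and 2987 against 65.5 to 225. Of the genes that carry or answer BMP signals, the ligand BMP4 was higher, at 355 and 409 against at most 8.26, and others were lower: SMAD9 read 185 and 146 in PC3 against 1404 to 4503, BMPR1B and ID3 were lower, and so were SMAD4, the SMAD that all these ligands share, at 734 and 922 against 1686 to 3409, the inhibitor SMAD7, and the Wnt target AXIN2.

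Other groups were mixed. Among genes of checkpoint and PI3K control, 8 of 34 were higher and 6 lower. CDK6, a kinase of the G1 phase, read 2034 and 2263 in PC3 and at most 89.4 elsewhere, and TP53INP1, a stress-response gene, read 270 and 263 against 4097 to 12518. In the glutathione and aldehyde list, 11 of 34 were higher and 4 lower. GSTP1, a glutathione transferase that luminal prostate cancers usually silence by methylation, read 5157 and 4848 in PC3 against 56.4 to 206. Prostaglandin genes split as 5 higher and 7 lower of 28, with PTGS2 and PTGES, which make prostaglandin E2, on the higher side and HPGD, which breaks it down, on the lower. Regulators of adhesion and the cytoskeleton were higher in 15 of 32 and lower in 2, among them vinculin (VCL) at 17112 and 16614 against 3186 to 5733.

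Some groups gave few calls or none. None of 36 proliferation genes was called in either direction, and their median difference was 0.06 (with median centring, 1 was lower). Without the 2-fold minimum 11 would be higher and 9 lower. MKI67 read 1729 and 1924 in PC3 against 805 to 1315, a log2 difference of 0.85, and TOP2A lay between the other 2 lines. MYC read 7599 and 7897 against 5270 to 6063 (log2 difference 0.46 ± 0.09 SE, limma adjusted p = 0.000758), a small gap that did not overlap. Of the BET genes, targets of the study's compound, BRD3 was lower in PC3, at 1709 and 1289 against 3037 to 5167, and BRD2, at 1410 and 1481 against 2348 to 3225, fell short of 2-fold at -0.90 but passed at -1.10 with arrays centred on the median. Neuroendocrine markers were not a feature of PC3, with 1 of 26 higher (SCG5) and 5 lower. CHGA and SYP were under the floor in PC3, and SYP was lower through the arrays labelled LNCaP. No blood cell marker of 10 was called (1 was lower with median centring or quantile normalization). Of 9 endothelial markers PECAM1 was higher, at 595 and 628 against 158 to 204, and ERG lower through the arrays labelled LNCaP.

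The level in NCI-H660 can be set beside that in PC3. KLK2, KLK3, TMPRSS2 and FOLH1 were under the floor in both, in NCI-H660 with means of 42.5, 15.7, 19.7 and 32. HOXB13, still over the floor in PC3, had a mean of 3.54. Several genes that set PC3 apart from LNCaP and VCaP were high in both lines, such as S100A6 (mean 10453 in NCI-H660), VIM (1358), FN1 (3094) and LOXL2 (2413). Others were near or under the floor in NCI-H660, among them CAV1 (34.8), LGALS1 (5.73), CXCL8 (65.5), FOSL1 (54.5) and AXL (30.8), each called higher in PC3 against it, as were 13.6% of all genes. CTNNA1, SELENOP and CRNDE were the reverse, under the floor in PC3 and at 3061, 3985 and 4609 in NCI-H660, and were called lower in PC3, as were 14.7% of all genes. The 2 comparisons share the PC3 arrays.

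Arrays given I-BET762 are separate cultures whose levels do not enter the vehicle differences, although they share the estimate of spread. At 0.5 µM, where 10.9% of all genes were higher and 9.19% lower, 1595 of the 2081 genes higher in vehicle were higher again (76.6%) and 2 were lower. Of the 1789 lower, 1294 were lower again (72.3%) and 1 was higher. At 10 µM the shares were 70.8% and 62.2%, against 10.9% and 8.75% of all genes. All 29 higher mesenchymal genes were called again at 10 µM, as were all 8 of the basal list and all 8 of the integrin list. Of the higher NF-kB and cytokine genes 23 of 33 were, near the 70.8% of all higher genes. Of the lower androgen-driven genes 21 of 25 were. CAV1, LGALS1, S100A6, AXL and S100A9 had differences over 7 on the log2 scale under every condition. IL1B went from a difference of 3.39 in vehicle to 0.34 at 10 µM, PTGS2 from 7.89 to 3.64, and JUN from 0.98 to -2.18. The change from vehicle to 10 µM passed a limma adjusted p under 0.1 for JUN and not for PTGS2. IL1B was not among the named genes examined for it.

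**Figure D4:**
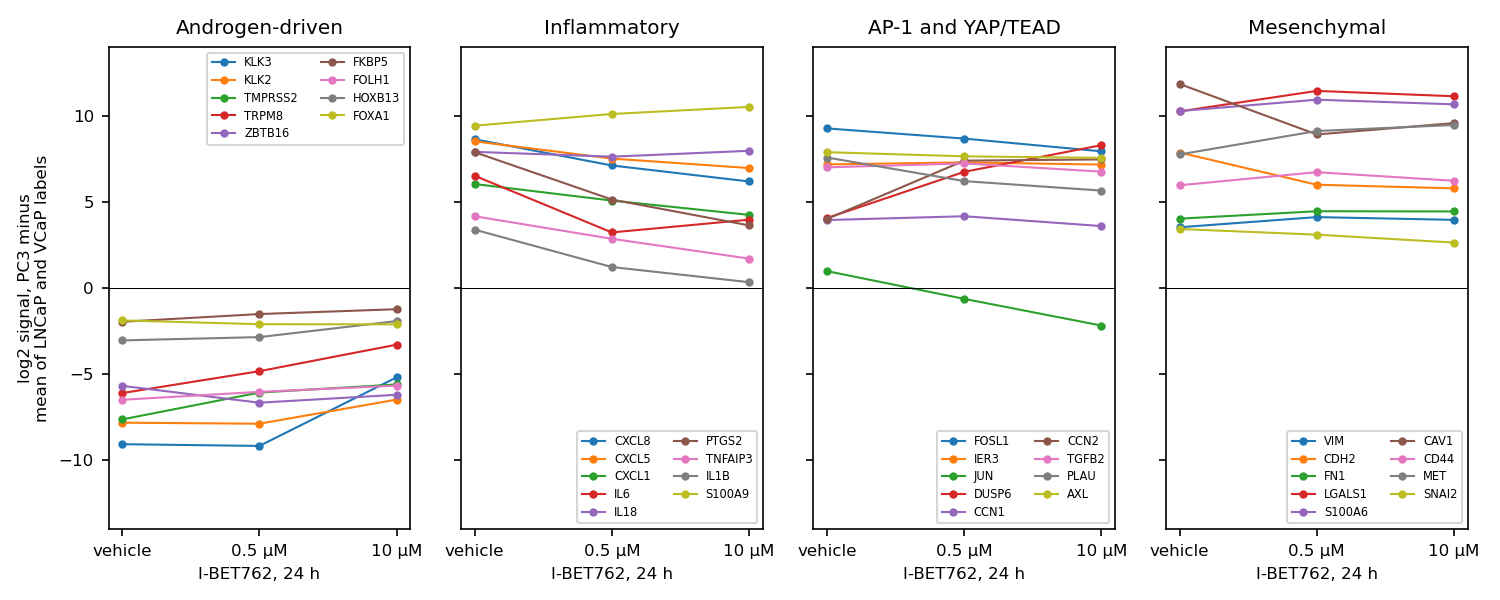
Difference in log2 signal between PC3 and the mean of the arrays labelled LNCaP and VCaP, for vehicle, 0.5 µM and 10 µM I-BET762, with 1 line per gene, of 9 genes in each of 4 groups. Mesenchymal genes stay high throughout, cytokine genes except IL18 and S100A9 come closer to the zero line, and JUN crosses it. Among the cytokine genes, the change at 10 µM passed for IL6 and not for CXCL8, CXCL1 or PTGS2. The others of that group were not examined for it.

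Genes called in the same direction lay next to each other in several places. Taking genes at the floor in chromosome order, 66 runs of 4 or more neighbours were called the same way, 41 higher and 25 lower. How many runs would be found without such neighbourhood was not worked out. The S100 cluster on chromosome 1 gave a run of 10 genes from S100A9 to S100A13, all higher against each line, with a median difference of 6.05. S100A2, S100A6, S100A8 and S100A9 reached the floor through PC3 alone, so they entered the order only by being high there. On chromosome 7 the run MDFIC, TES, CAV2, CAV1 and MET was higher, CAV1 being among the 15 leading genes. The longest run was lower and lay among zinc finger genes of chromosome 19, with 14 genes from ZNF850 to ZNF793, and another of 9 genes reached from ZNF542P to ZNF470. ZNF genes encode KRAB and other zinc finger proteins that mostly repress transcription. Over the whole of chromosome 19, 77 of 185 ZNF genes at the floor were lower in PC3 (41.6%) and 6 higher (3.24%). For the 205 ZNF genes at the floor elsewhere in the genome the shares were 17.6% and 13.7%, and for the 718 other genes of chromosome 19 they were 14.1% and 16.9%, close to the 13.7% and 15.9% of all genes at the floor. ZNF585A read 26 and 7.25 in PC3, 779 and 719 on the arrays labelled LNCaP and 1559 and 1522 on those labelled VCaP. By chromosome, chromosome 8 had the largest share of higher genes, 25.9%, and chromosomes 9 and 4 the largest shares of lower ones, 22.7% and 22.5%. Copy number was not measured here, and its part in these runs was not tested.

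**Figure D5:**
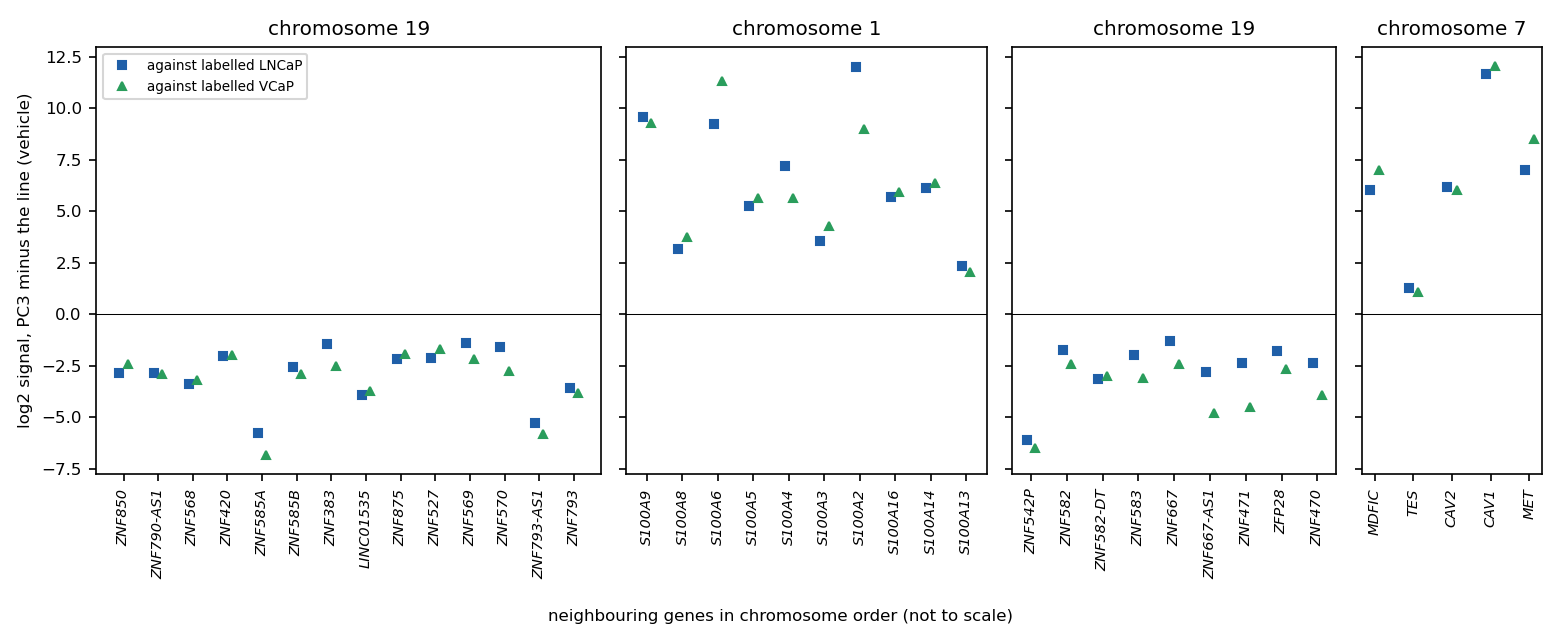
Difference in log2 signal between PC3 and the arrays labelled LNCaP (squares) and labelled VCaP (triangles) for 4 runs of neighbouring genes in chromosome order, not to scale. As the rule for a run requires, all genes of the 2 zinc finger runs on chromosome 19 lie below zero. All genes of the S100 run and of the run ending in MET lie above it against both lines.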

How the data were processed

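RNA levels were read on U133 Plus 2.0 arrays from Affymetrix, with 2 biological replicates in each of 12 groups, from biotinylated cRNA of polyA RNA. The deposited values are linear MAS5 signal intensities, brought by the authors to a trimmed mean near 500 per array. They were taken to log2 without a pseudocount, and 62 control probe sets were left out. The 54613 others were fitted in 1 limma model of all 24 arrays with 12 groups (R 4.3.3, limma 3.58.1), with Benjamini-Hochberg adjustment over all of them.

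A gene was called at an adjusted p under 0.1, a difference over 2-fold between PC3 and the mean of the other lines, a mean signal of 100.0 or more in any line, and the same sign against each line. Each gene was read by its probe set of highest mean log2 signal, leaving out sets with the suffix _x_at where another existed. Folds against a mean under 100.0 are given as "at least", against 100.0. The number of arrays limits the precision. The fit was tested on simulated data. Replicate numbers were not used as a pairing: same-numbered arrays of the groups deviated together with correlations of -0.08 to 0.10, and none of 66 pairs was over 0.1.

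Probe sets were named through the platform annotation and RefSeq, 41091 with a single symbol, 1801 with several and 11721 unnamed. Named genes are the 15 highest and 15 lowest against each line by group means floored at 100.0, up to 5 per list and direction, and a fixed list. The ranked genes had to be called against each line, with both PC3 arrays beyond all arrays of the other lines. For them a lack of overlap was thus a condition of entry and not a result. Others were singled out after their values were seen. Members and lists were chosen with earlier results of these data known. Some genes are not reported here. Alternatives were the scaling, the floor, the threshold, the adjustment, an intensity trend, the arrays fitted, the probe set rule, a replicate block and leaving out each array.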

Additional observations from a re-analysis of the deposited data

Results flagged for a closer look

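Of 65 named genes tested, 16 had a difference between PC3 and the other 2 lines that was not the same at 10 µM I-BET762 as in vehicle, by the limma contrast of both differences at an adjusted p under 0.1. Over all 19775 genes the contrast passed for 3148 (15.9%). Each value is the log2 difference at 10 µM minus that in vehicle. Of the androgen-driven genes tested, KLK3 came closer by 3.88 (adjusted p = 0.0254) and TMPRSS2 by 2.03 (0.0673), while KLK2 and ZBTB16 were not flagged. KLK3 went from a mean of 7931 to 229 on the arrays labelled LNCaP and from 20385 to 4798 on those labelled VCaP, while PC3 was under the floor under both conditions.

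JUN moved by -3.15 (5.57e-07), from 182 and 210.0 to 1624 and 1614 on the arrays labelled LNCaP and VCaP, with 387 and 361 in PC3. CCN2 moved by 3.46 (3.07e-05), from 378 to 13641 in PC3, from 87.3 to 1739 on the arrays labelled LNCaP and from 6.4 to 3.58 on those labelled VCaP. MYC was lower at 10 µM in all 3 lines, from 7748 to 3888 in PC3 and to 1367 and 980.0 in the others, and the difference widened by 1.29 (3.61e-05).

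The difference moved by -2.55 for IL6 (0.0571), by -1.91 for PLAU (0.00209) and by -0.75 for NFKB1 (0.0253), while CXCL8, CXCL1 and PTGS2 were not flagged. In PC3 itself their means were lower at 10 µM, from 2235 to 413, from 11831 to 3018 and from 1237 to 563. ARG2 moved by 2.68 (3.59e-07; 99.1 to 590.0 in PC3) and ARHGEF26 by 2.86 (1.87e-07; 176 to 527). BRD2 moved by -0.64 (0.00713), with more signal at 10 µM in all 3 lines, and CDH1 by -0.42 (0.0671). PRXL2A moved by 1.11 (0.0692), SELENOP by 1.51 (0.0945), CALB1 by -1.30 (0.0726) and MET by 1.71 (0.0532), and in these 4 at least 1 line lay under the floor under both conditions.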

How the results depend on the processing

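Of the counts of genes called, 168 of 174 values under the alternatives were within 1.5 times the main value. The 6 others required a call against each line on its own: 1377 higher and 963 lower in vehicle, 1384 and 1008 at 0.5 µM, and 1368 and 944 at 10 µM. With the replicate number as a block, 2084 genes were higher and 1788 lower in vehicle. Leaving out each array in turn gave 2001 to 2092 higher, lowest without PC3 replicate 1, and 1710 to 1794 lower, lowest without PC3 replicate 2. Without a floor the counts were 2532 and 2000.0, and with a floor of 200 they were 1788 and 1582.

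For counts over the gene lists, 589 of 650 values were within 1.5 times the main one. For single genes, 1031 of 1040 kept direction and side of the threshold. The exceptions were KRT5, called with no floor at 3.16, BRD2, called at -1.10 with median centring, JUN, which passed without VCaP replicate 1 and, at 1.12, without PC3 replicate 2, SYP, lost at -1.62 with a floor of 200, at -1.58 without VCaP replicate 1 and at -0.99 without PC3 replicate 2, ERG, lost at -3.17 with the mean over probe sets, and CDKN1A, lost at -0.90 without PC3 replicate 1. The cause was not tested.

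Signals under 100 are near background, so the sizes of differences against silent genes are bounds. With 2 arrays a group, each from a single line, the spread between patients' tumors was not measured. The exchange of LNCaP and VCaP labels that ERG and ETV1 bear on cannot be settled here.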
